A study of Mus musculus with 6 samples.

Results

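The 10 genes examined encode enzymes of collagen hydroxylation and cross-linking, and were measured in a mouse lung cancer cell line, Lewis lung carcinoma (LLC), recovered from tumours that had been started with or without bone marrow-derived mesenchymal stem cells (BMSCs). The 10 genes were chosen by symbol from the 18182 genes of the deposited tables. They were the 5 lysyl oxidases Lox, Loxl1, Loxl2, Loxl3 and Loxl4, the 3 lysyl hydroxylases Plod1, Plod2 and Plod3, and the prolyl 4-hydroxylase alpha subunits P4ha1 and P4ha2, with the NCBI gene identifiers 16948, 16949, 94352, 16950, 67573, 18822, 26432, 26433, 18451 and 18452 in this order. LLC cells that carried red fluorescent protein (LLC-RFP) were injected under the skin of wild type C57BL/6 mice, alone in the first group and together with BMSCs in the second. Fluorescent cells were then sorted from the primary tumours for RNA sequencing, with 3 libraries per group. Mice of the allograft experiments were females of 6 weeks; whether this holds for the LLC-RFP tumours, and whether a library held cells of more than one animal, was not given in the sources used here. The source label of the second group names mesenchymal stem cells beside the LLC cells, although both groups were sorted for the red protein of the LLC cells. Because each library pools many cells, a change in the mix of cells and a change in RNA per cell cannot be told apart.

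Collagen chains are modified in the endoplasmic reticulum before they fold into a triple helix. Prolyl 4-hydroxylases, made of an alpha subunit that carries the active site and the beta subunit P4hb, hydroxylate prolines and so make the helix stable at body temperature. Lysyl hydroxylases turn lysines into hydroxylysines, which carry sugars and form the more stable kinds of cross-link. Outside the cell, the copper-dependent lysyl oxidases convert lysines and hydroxylysines of collagen and elastin into aldehydes that then cross-link neighbouring molecules. The hydroxylases need oxygen and iron, and several of the 10 genes are textbook targets of the hypoxia-inducible factors. Cross-linked collagen is known for stiffening the stroma of solid tumours.

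Of the 10 genes 7 were higher in LLC with BMSCs, none was lower, and summed over the 10 genes the level went from 128.7 ± 3.45 to 265.9 ± 3.62 FPKM (fragments scaled to transcript length and library total, SD, n = 3 per group). Lox went from almost no reads to a clear signal, Loxl2 rose 3.62-fold in FPKM, and the other 5 genes rose 1.39-fold to 2.71-fold. Of the 9 genes with enough reads to be tested, 7 were called higher at an adjusted p under 0.05 by edgeR's quasi-likelihood test and 2, Loxl4 and Plod3, were not called. Among all 13353 genes tested, 31.5% were called higher and 31.3% lower. Of the 9 genes 5 were called with a log2 fold change of at least 1, against 8.65% of all genes tested. The median log2 fold change was 1.25 over the 9 genes and 0.01 over all genes tested. Lox entered the test only through its reads in LLC with BMSCs. Without it 6 of 8 genes were called higher, 4 of them by at least 1, and the median log2 fold change was 1.03.

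**Figure D1:**
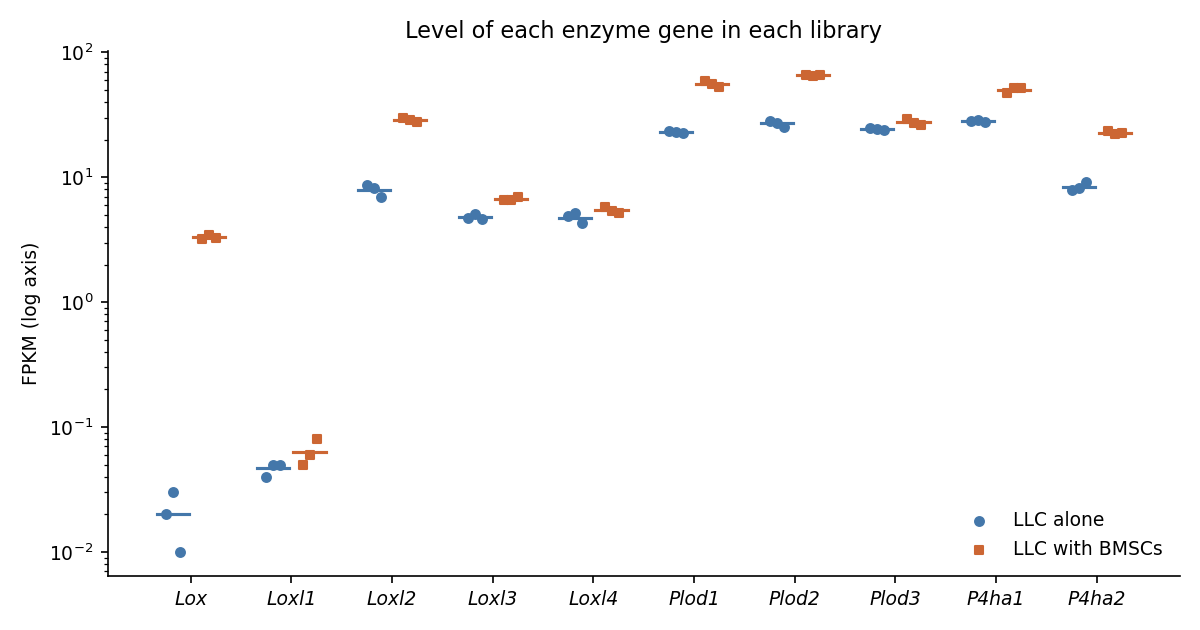
FPKM of the 10 enzyme genes (log axis) in the 3 libraries of LLC alone (circles) and the 3 of LLC with BMSCs (squares), with a line at each group mean. Lox moved from between 0.01 and 0.03 to between 3.2 and 3.43, Loxl1 stayed under 0.1 in every library, and for the other 8 genes every square lies above every circle.

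The libraries held between 33476347 and 46189113 estimated counts. Levels varied with gene length along with the groups. Relative to the mean of all 6 libraries, genes of the longest of 5 length classes had medians of 0.10 to 0.18 on the log2 scale in LLC with BMSCs and of -0.37 to -0.003 in LLC alone, and genes of the shortest class -0.19 to -0.09 and 0.037 to 0.31. The part of this trend in the results was tested only by the fits with it removed, where 7 of the 10 genes were again called higher. LLC alone replicate 3 stood apart from the other libraries, with genes of the shortest of 5 length classes at a median of 0.31 on the log2 scale above the mean of all 6 libraries and genes of the longest class at -0.37. LLC alone replicates 1 and 2, and LLC with BMSCs replicates 2 and 3, were closer to each other than the other pairs, with a mean chi-square of 4.74 and 3.00 per gene against 19.0 to 60.2. The median chi-square of these pairs was still 1.95 and 1.68 times that of sampling noise alone. This ratio cannot tell separate tumours from repeated libraries of the same tumour, since both can exceed sampling noise. The libraries of these pairs were kept apart in the main fit. With the pairs summed in an alternative fit, 7 of the 10 genes were again called higher. With LLC alone replicate 3 left out, 8 of the 10 genes were called higher and none lower.

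Lox, the founding lysyl oxidase and a gene whose product cross-links collagen and elastin, showed the largest change of the 10. Its FPKM was 0.02, 0.03 and 0.01 in LLC alone and 3.2, 3.43 and 3.26 in LLC with BMSCs, from 5, 4 and 2 counts against 676, 705 and 670. The groups did not overlap, and Lox sat at the edge of detection in every library of LLC alone. The summed counts of 11 and 2051 gave a ratio of 175 after scaling for library size, with an exact 95% counting interval of 97.3 to 350.2. The fitted log2 fold change was 7.40 ± 0.18 (SE), with an adjusted p of 1.1e-07 in edgeR's quasi-likelihood test, and 99.5% of the genes tested had a smaller one. As Lox was tested only because of its reads in LLC with BMSCs, this p-value and rank are no support beyond the counts.

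Genes of BMSCs and fibroblasts moved beside Lox. Col1a1, the alpha1 chain of type I collagen, had 2, 4 and 4 counts in LLC alone and 586, 499 and 477 in LLC with BMSCs. Dcn, the fibroblast proteoglycan decorin, had 8 counts in each library of LLC alone and 506, 526 and 492 in LLC with BMSCs. Of 15 listed BMSC and fibroblast markers, all 12 that could be tested were higher, among them the collagens Col1a1, Col1a2 and Col3a1, against 31.5% of all genes tested. Col1a1, Dcn and Lum were tested only because of their reads in LLC with BMSCs; of markers with at least 10 counts in every library 9 of 9 were higher, against 30.3% of all such genes. The summed level of the list went from between 492 and 574 to between 1049 and 1086 counts scaled to library total (CPM). Col3a1 had the highest counts of the list in every library. Several of the markers were already well expressed in LLC alone, with Col3a1 at 41.2, Prrx1 at 29.2 and Eng at 28.7 FPKM. The summed level and these calls are thus not a measure of BMSCs alone. The defining surface marker Thy1 stayed at 0, 2 and 1 counts in LLC with BMSCs, and Postn at 4, 5 and 2. The summed neutrophil markers went from between 0.469 and 0.789 to between 21.2 and 24.0 CPM. The highest counts among them in LLC with BMSCs were those of S100a9 (434, 421 and 522) and S100a8 (254, 300 and 302). Ly6g had 4, 3 and 1 counts in LLC alone and 3, 1 and 1 in LLC with BMSCs. The summed macrophage markers went from between 24.1 and 28.8 to between 36.3 and 38.9 CPM. Most neutrophil and macrophage markers were near 0 in LLC alone and were tested only because of their reads in LLC with BMSCs, so their calls are not counted here. With at least 10 counts in every library there were 1 neutrophil and 4 macrophage markers, of which 1 and 2 were higher and 0 and 1 lower. Endothelial markers lay between 12.1 and 15.3 CPM in LLC alone and between 12.4 and 13.0 CPM in LLC with BMSCs. Of these markers 0 of 3 were called, against 31.5% higher and 31.3% lower of all genes tested. Most of the sum was Egfl7, with 508, 389 and 652 counts against 499, 484 and 491. The other 8 of 9 stayed under 1 FPKM in every library. Among those too low to test, Cdh5 had 2, 1 and 1 counts against 10, 8 and 14, and Tek 8, 3 and 2 against 3, 1 and 0. Lymphocyte markers stayed under 0.4 CPM in every library, too low to test. Of the epithelial markers Krt8 was abundant, at 95.3 FPKM in LLC alone against 110.0 FPKM in LLC with BMSCs, whereas Epcam had at most 4 counts in a library. Krt8 was called higher, with a log2 fold change of 0.19 ± 0.07 (SE) and an adjusted p of 0.037 in edgeR's quasi-likelihood test. Krt18 had 2, 4 and 8 counts against 41, 37 and 37, and was tested only because of its reads in LLC with BMSCs. The part of any of these cell types in the results on the 10 enzymes was not tested.

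Loxl2, a lysyl oxidase known to act on type IV collagen of basement membranes, was the most abundant lysyl oxidase in both groups. It had 8.64, 8.19 and 6.93 FPKM in LLC alone against 29.56, 28.74 and 27.72 FPKM in LLC with BMSCs. All 3 libraries of LLC with BMSCs lay far above the highest of LLC alone. The log2 fold change was 1.83 ± 0.09 (SE), with an adjusted p of 2.8e-06 in edgeR's quasi-likelihood test, larger than that of 95.6% of the genes tested.

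Loxl3 and Loxl4, which share with Loxl2 the scavenger receptor domains that Lox and Loxl1 lack, had smaller fold changes than Loxl2. Loxl3 had 4.7, 5.12 and 4.59 FPKM in LLC alone against 6.52, 6.63 and 6.92 FPKM in LLC with BMSCs, with a log2 fold change of 0.46 ± 0.06 (SE) and an adjusted p of 0.00052 in edgeR's quasi-likelihood test. Its groups did not overlap. Loxl4 had 4.87, 5.13 and 4.28 FPKM in LLC alone against 5.73, 5.38 and 5.15 FPKM in LLC with BMSCs. The lowest library of LLC with BMSCs lay only just above the highest of LLC alone, and the log2 fold change of 0.17 ± 0.08 (SE) was not called, with an adjusted p of 0.10. With a trend in gene length removed from each library the fold change of Loxl4 turned to -0.054, with an adjusted p of 0.35 in the same test.

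Loxl1, best known for cross-linking elastin, was close to undetected. It had 0.04, 0.05 and 0.05 FPKM in LLC alone against 0.05, 0.06 and 0.08 FPKM in LLC with BMSCs, from 6, 5 and 7 counts against 8, 8 and 12. The groups met at 0.05 FPKM, and Loxl1 was too low to be tested. Without a filter on low counts its log2 fold change was 0.54, with an adjusted p of 0.29 in edgeR's quasi-likelihood test, so that a difference was not detectable at this depth.

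Loxl2 and Lox took larger shares of the lysyl oxidases in LLC with BMSCs. The summed level of the 5 genes went from 17.6 ± 1.47 to 44.1 ± 0.97 FPKM (SD, n = 3 per group). Loxl2 made up 45.1% ± 1.94 of this sum in LLC alone and 64.9% ± 0.67 in LLC with BMSCs, and Lox 0.112% ± 0.049 and 7.47% ± 0.33. The shares of Loxl3 and Loxl4 were smaller, going from 27.4% ± 1.62 to 15.2% ± 0.80 and from 27.1% ± 0.53 to 12.3% ± 0.40, although neither gene was called lower. Each of these shares had groups that did not overlap, with an exact permutation p of 0.1 (two-sided), the smallest that 3 against 3 libraries allow.

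**Figure D2:**
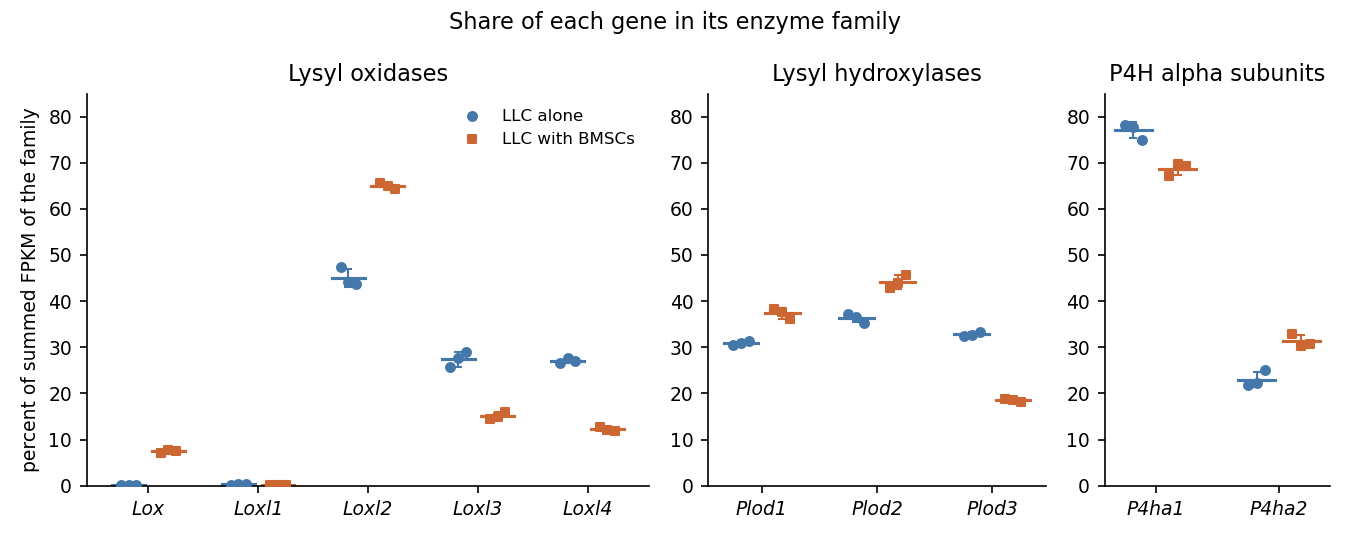
Percent of the summed FPKM of its enzyme family that each gene took in each library, for LLC alone (circles) and LLC with BMSCs (squares), with lines at group means and bars of SD (n = 3). Loxl2 went from 45.1% to 64.9% of the lysyl oxidases and Plod3 from 32.8% to 18.5% of the lysyl hydroxylases. P4ha2 went from 23.0% to 31.3% of P4ha1 and P4ha2 summed, with P4ha3 left out.

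Plod1 and Plod2 rose together among the lysyl hydroxylases while Plod3 was not called. Plod1, which hydroxylates lysines within the triple helix, had 23.32, 23.16 and 22.57 FPKM in LLC alone against 59.06, 55.42 and 52.36 FPKM in LLC with BMSCs, a log2 fold change of 1.25 ± 0.06 (SE) with an adjusted p of 3.7e-06 in edgeR's quasi-likelihood test. Plod2, which acts on the telopeptides at the ends of the collagen chain, had 28.43, 27.4 and 25.48 FPKM in LLC alone against 65.78, 64.63 and 66.39 FPKM in LLC with BMSCs, a log2 fold change of 1.25 ± 0.06 (SE) with an adjusted p of 2.6e-06. For both genes the lowest library of LLC with BMSCs had more than the highest of LLC alone by a wide margin. Their fold changes were larger than those of 93.2% of the genes tested.

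Plod3, the lysyl hydroxylase that also adds sugars to hydroxylysine, had 24.78, 24.57 and 24.07 FPKM in LLC alone against 29.02, 27.22 and 26.38 FPKM in LLC with BMSCs. The groups did not overlap in FPKM, as was true of 9 of the 10 genes with the higher values in LLC with BMSCs and of 37% of all genes tested. The log2 fold change of 0.15 ± 0.06 (SE) narrowly missed the threshold, with an adjusted p of 0.061 in edgeR's quasi-likelihood test. It passed in 5 of 18 alternative fits, among them the fit without LLC alone replicate 3, where the adjusted p was 0.037.

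The share of Plod3 in the summed FPKM of the lysyl hydroxylases went from 32.8% ± 0.51 to 18.5% ± 0.34 (SD, n = 3 per group). Plod1 went from 30.9% ± 0.41 to 37.4% ± 1.18 and Plod2 from 36.3% ± 0.92 to 44.1% ± 1.51. The 3 shares, close to one another in LLC alone, were thus spread out in LLC with BMSCs, each without overlap between the groups (exact permutation p = 0.1, two-sided). The summed level of the family went from 74.6 ± 2.25 to 148.8 ± 4.55 FPKM.

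Both prolyl 4-hydroxylase alpha subunits were higher, P4ha2 more than P4ha1. P4ha1, the main alpha subunit of most cells, had 28.23, 28.67 and 27.58 FPKM in LLC alone against 47.48, 51.67 and 51.44 FPKM in LLC with BMSCs, a log2 fold change of 0.81 ± 0.06 (SE) with an adjusted p of 1.6e-05 in edgeR's quasi-likelihood test. P4ha2, the second alpha subunit, had 7.85, 8.22 and 9.18 FPKM in LLC alone against 23.27, 22.38 and 22.75 FPKM in LLC with BMSCs, a log2 fold change of 1.42 ± 0.07 (SE) with an adjusted p of 3.4e-06. The groups lay well apart for both genes. P4ha2 went from 23.0% ± 1.73 to 31.3% ± 1.43 of their summed FPKM (SD, n = 3 per group), without overlap (exact permutation p = 0.1, two-sided).

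Their partner P4hb, also called protein disulphide isomerase, rose less, from 234.7 ± 2.88 to 293.5 ± 8.68 FPKM, a log2 fold change of 0.30 ± 0.05 (SE) with an adjusted p of 0.0015 in edgeR's quasi-likelihood test, which was 0.054 with the close pairs of libraries summed. P4ha1 and P4ha2 together amounted to 15.6% ± 0.18 of the FPKM of P4hb in LLC alone and 24.9% ± 0.15 in LLC with BMSCs. P4hb was thus in excess of the alpha subunits in every library. P4ha3, the third alpha subunit, was low and fell, from 1.56 ± 0.05 to 0.973 ± 0.10 FPKM, with a log2 fold change of -0.70 ± 0.12 (SE) and an adjusted p of 0.0013.

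**Figure D3:**
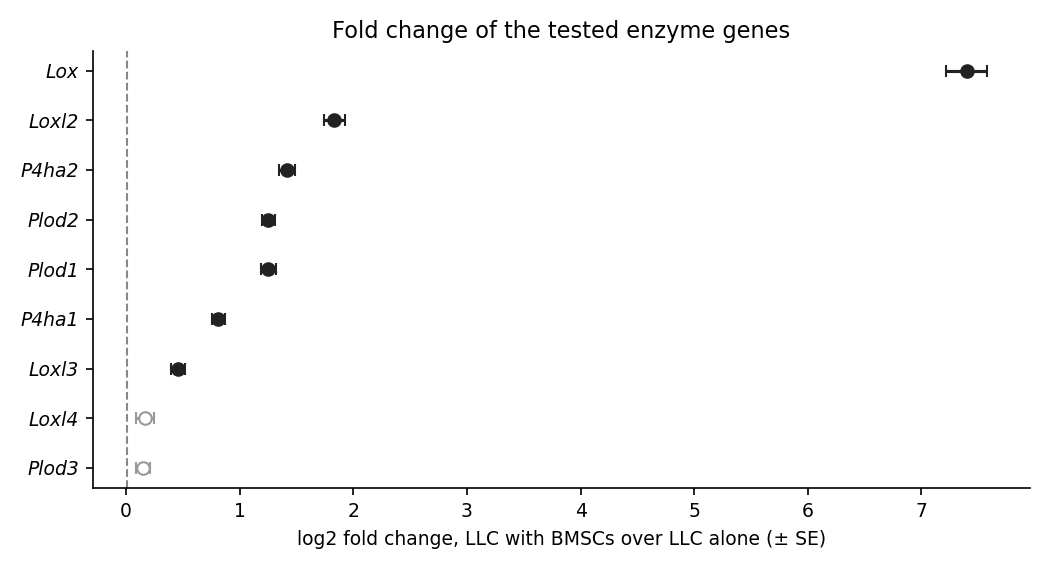
Log2 fold change (LLC with BMSCs over LLC alone, ± SE) of the 9 enzyme genes that could be tested, with filled points for genes called at an adjusted p under 0.05, open points for genes not called, and a dashed line at the median of all genes tested. Lox lies at 7.40, Loxl2, P4ha2, Plod2 and Plod1 between 1.25 and 1.83, and the open points of Loxl4 and Plod3 at 0.17 and 0.15.

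The order of the 10 levels differed between the groups. In LLC alone P4ha1 (28.2 FPKM) and Plod2 (27.1 FPKM) led with overlapping ranges, followed by Plod3 at 24.5 and Plod1 at 23.0 FPKM. P4ha2 (8.42 FPKM) overlapped with Loxl2 (7.92 FPKM), and Loxl3 (4.80 FPKM) with Loxl4 (4.76 FPKM). In LLC with BMSCs the order was Plod2 at 65.6, Plod1 at 55.6 and P4ha1 at 50.2 FPKM, with no overlap between neighbours. Loxl2 at 28.7 FPKM overlapped with Plod3 at 27.5 FPKM, and P4ha2 followed at 22.8 FPKM. Lox, last of the 10 in LLC alone, stood ninth in LLC with BMSCs, ahead of Loxl1 only.

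Plod2, P4ha1 and P4ha2 are made as transcripts that differ by an alternative exon, and the deposited tables divide their reads among these. The exons are shown in capitals between 20 bases of the neighbouring exons on either side, in the direction of the gene, from GRCm38 with GENCODE exons, because the transcripts differ within them. All are coding. Plod2 transcript NM_001142916 contains exon 14 of its 20 exons, 63 bases at chr9:92601985-92602047, which the shorter NM_011961 skips. P4ha1 uses one of 2 exons of 71 bases as exon 9 of 15, at chr10:59354340-59354410 in NM_011030 and at chr10:59355350-59355420 in NM_001316371, identical at 42 of 71 bases. P4ha2 uses one of 2 exons as exon 13 of 16, 66 bases at chr11:54126346-54126411 in NM_011031 and 60 bases at chr11:54126238-54126297 in NM_001136076, identical at 36 of 67 aligned columns. All lie on the plus strand.
Plod2 exon 14 of NM_001142916: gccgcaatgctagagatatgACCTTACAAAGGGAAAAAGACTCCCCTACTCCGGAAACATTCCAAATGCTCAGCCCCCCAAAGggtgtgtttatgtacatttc
P4ha1 exon 9 of NM_011030: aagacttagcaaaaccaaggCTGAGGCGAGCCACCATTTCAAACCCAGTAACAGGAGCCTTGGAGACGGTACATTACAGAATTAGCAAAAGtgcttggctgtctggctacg
P4ha1 exon 9 of NM_001316371: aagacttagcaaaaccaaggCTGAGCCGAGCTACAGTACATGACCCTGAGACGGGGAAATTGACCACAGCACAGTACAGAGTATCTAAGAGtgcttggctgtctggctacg
P4ha2 exon 13 of NM_011031: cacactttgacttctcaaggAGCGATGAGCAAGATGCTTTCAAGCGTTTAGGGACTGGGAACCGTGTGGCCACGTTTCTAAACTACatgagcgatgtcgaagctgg
P4ha2 exon 13 of NM_001136076: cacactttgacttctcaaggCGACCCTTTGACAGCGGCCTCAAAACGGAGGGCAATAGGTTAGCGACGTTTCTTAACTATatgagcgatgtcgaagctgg

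Leaving out Lox, whose few reads in LLC alone give no usable share, the largest difference in transcript shares between the groups was that of P4ha2. NM_011031, with the 66-base exon, had 5.01, 5.47 and 5.45 FPKM in LLC alone against 17.49, 17.33 and 18.02 FPKM in LLC with BMSCs. NM_001136076, with the 60-base exon, had 2.84, 2.76 and 3.74 FPKM in LLC alone against 5.78, 5.05 and 4.73 FPKM in LLC with BMSCs. Both were higher in every library of LLC with BMSCs, by 3.32-fold and 1.67-fold. The share of NM_011031 in the gene was 63.2% ± 3.62 in LLC alone and 77.3% ± 2.03 in LLC with BMSCs (SD, n = 3 per group).

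For Plod2 the form without exon 14 took a larger share in LLC with BMSCs than in LLC alone. NM_011961 had 6.69, 6.14 and 5.67 FPKM in LLC alone against 19.03, 17.28 and 18.87 FPKM in LLC with BMSCs, whereas NM_001142916 had 21.75, 21.26 and 19.81 FPKM against 46.74, 47.36 and 47.52 FPKM. NM_001142916 remained the larger part in every library, at 77.3% ± 0.69 of the gene in LLC alone and 72.0% ± 1.15 in LLC with BMSCs. The P4ha1 forms differed by less, with NM_011030 at 65.1% ± 1.32 and 61.9% ± 1.16 and NM_001316371 at 33.8% ± 1.45 and 37.1% ± 1.5. The shares did not overlap between the groups for the alternative forms of the 3 genes, each with an exact permutation p of 0.1 (two-sided), the smallest possible.

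Again leaving out Lox, 6 of the 10 genes were divided among 13 transcripts, and 6 transcripts of 3 genes had shares that did not overlap between the groups. Among all genes tested with several transcripts, 28.1% of transcripts and 45% of genes did so, which is near the 3 of 6 genes seen here. The transcript shares of Loxl2, Loxl3 and Loxl4 overlapped between the groups. Without LLC alone replicate 3 the count was 10 of 13 transcripts, against 38.2% of all such transcripts. Such shares rest on the division of reads between similar transcripts by the authors' counting. Most of Loxl2 was assigned to a transcript without a RefSeq identifier. It took 82.3% ± 13.1 of the gene in LLC alone and 78.8% ± 0.68 in LLC with BMSCs (SD, n = 3 per group). Another such transcript took 10.3% ± 9.8 and 19.4% ± 8.4 of Loxl3.

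**Figure D4:**
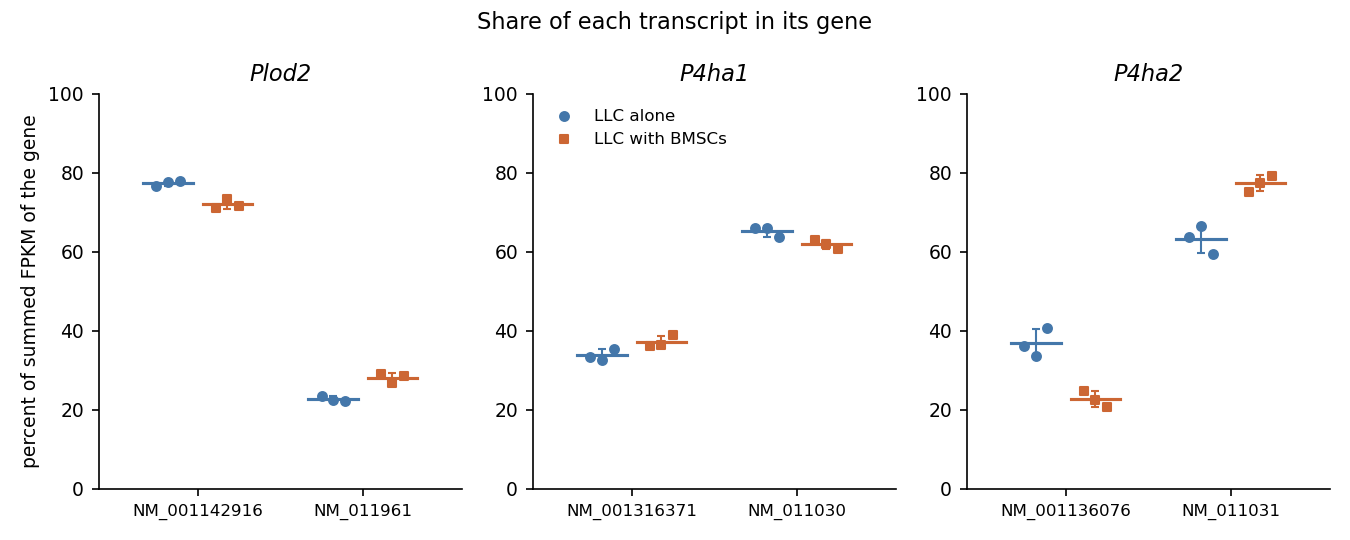
Percent of the FPKM of its gene that each transcript of Plod2, P4ha1 and P4ha2 took in each library, for LLC alone (circles) and LLC with BMSCs (squares), with lines at group means and bars of SD (n = 3); the minor P4ha1 transcript NM_001316370, at about 1% of the gene, is not drawn. NM_011031 of P4ha2 went from 63.2% to 77.3% and NM_001142916 of Plod2 went from 77.3% to 72.0%.

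Promoters of 5 of the 10 genes, Loxl4, Plod1, Plod3, P4ha1 and P4ha2, were available from RefSeq (GRCm38.p6), each as 250 bases before and 50 bases after the start of the gene. They are shown because hypoxia-inducible factors are known to bind short motifs with the core CGTG, and because Plod1, P4ha1 and P4ha2 rose whereas Plod3 was not called. ACGTG and GCGTG were searched on both strands, with overlapping matches all counted. At least one match of either was found in 44.0% of 32544 mouse promoters of this length, ACGTG in 19.7% and GCGTG in 32.6%. P4ha2 held 2 matches of ACGTG and 2 of GCGTG, P4ha1 held 1 and 2, Plod3 held 1 and 3, Plod1 held 0 and 2, and Loxl4 held 0 and 1. At least 4 matches, as in P4ha2 and Plod3, were found in 3.88% of all promoters. At least 3, as in P4ha1, were found in 8.99%, and at least 2, as in Plod1, in 20.8%. Plod3, which was not called, held as many matches as P4ha2. The data hold no measure of binding at any of the matches, and their part in the levels was not tested. Capitals mark the matches in 4 promoters, of P4ha2 at chr11:54100674-54100973 (plus strand), P4ha1 at chr10:59323046-59323345 (plus strand), Plod1 at chr4:147936727-147937026 (minus strand) and Plod3 at chr5:136986769-136987068 (plus strand).
P4ha2 promoter: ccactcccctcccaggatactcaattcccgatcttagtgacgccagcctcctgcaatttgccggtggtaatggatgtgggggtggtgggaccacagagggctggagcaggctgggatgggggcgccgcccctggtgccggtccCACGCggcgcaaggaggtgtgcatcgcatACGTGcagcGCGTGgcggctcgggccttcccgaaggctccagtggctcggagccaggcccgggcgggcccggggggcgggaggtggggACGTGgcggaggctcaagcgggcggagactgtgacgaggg
P4ha1 promoter: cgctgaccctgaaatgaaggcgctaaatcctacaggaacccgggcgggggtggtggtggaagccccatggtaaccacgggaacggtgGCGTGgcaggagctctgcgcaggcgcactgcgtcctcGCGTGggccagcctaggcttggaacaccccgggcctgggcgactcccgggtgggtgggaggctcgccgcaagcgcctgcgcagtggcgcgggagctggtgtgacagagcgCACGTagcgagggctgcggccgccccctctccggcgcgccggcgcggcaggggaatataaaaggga
Plod1 promoter: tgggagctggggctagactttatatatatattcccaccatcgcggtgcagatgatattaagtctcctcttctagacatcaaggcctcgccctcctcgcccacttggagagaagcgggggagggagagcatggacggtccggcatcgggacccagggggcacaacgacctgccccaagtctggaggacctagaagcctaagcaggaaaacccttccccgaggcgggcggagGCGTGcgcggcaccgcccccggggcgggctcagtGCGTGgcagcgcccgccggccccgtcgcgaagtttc
Plod3 promoter: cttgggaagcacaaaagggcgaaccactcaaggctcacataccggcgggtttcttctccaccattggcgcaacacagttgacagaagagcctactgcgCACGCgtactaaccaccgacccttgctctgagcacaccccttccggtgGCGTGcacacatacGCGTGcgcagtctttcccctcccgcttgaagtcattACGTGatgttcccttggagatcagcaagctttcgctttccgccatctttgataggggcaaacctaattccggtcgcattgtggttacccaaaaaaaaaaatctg

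Other genes of collagen modification, export, processing and copper supply were called in both directions, whereas none of the 10 enzymes was called lower. P4ha3, an alpha subunit like P4ha1 and P4ha2, was listed among these other genes and was one of those called lower. The list held 32 symbols, of which Fbln4, another name of the listed Efemp2, was not found. The other 31 were in the files and 26 could be tested. Of these, 14 were higher and 5 lower, against 31.5% and 31.3% of all genes, and their median log2 fold change was 0.31. Tmem38b was tested only because of its reads in LLC with BMSCs, and without it 13 of 25 were higher with a median of 0.30. Among those with at least 100 normalized counts the largest increases were those of Pxdn, which forms sulfilimine cross-links in type IV collagen, with a log2 fold change of 1.39 ± 0.13 (SE), Adamts14, a procollagen N-proteinase, with 1.36 ± 0.10, and the transglutaminase Tgm2 with 1.34 ± 0.09. Bmp1, the protease that cuts procollagen C-propeptides and the propeptide of Lox, rose from 22.8 ± 0.96 to 40.6 ± 0.62 FPKM. Pcolce, listed with Bmp1 among the processing genes, was lower, with a log2 fold change of -0.27 ± 0.07 (SE), a call lost in 4 of 18 alternative fits. Serpinh1, the collagen chaperone HSP47, fell from 241.7 ± 14.0 to 135.6 ± 2.46 FPKM, a log2 fold change of -0.85 ± 0.06 (SE), and the copper importer Slc31a1 fell by 0.32 ± 0.05 on the log2 scale.

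Within these genes the prolyl 3-hydroxylases P3h1, P3h2 and P3h3 were higher, with log2 fold changes of 0.21, 0.49 and 0.77, while P3h4 was not called at -0.16. Crtap, listed with them, was lower at -0.21, a call lost in 11 of 18 alternative fits, and Ppib was not called at -0.10. The call of P3h1 was lost in 1 of 18, with the close pairs of libraries summed. Colgalt1, which adds galactose to hydroxylysine, rose from 53.1 ± 0.24 to 78.1 ± 0.66 FPKM. The copper pump Atp7a, which loads copper onto secreted enzymes such as the lysyl oxidases, had 3.72 ± 0.83 and 4.63 ± 0.09 FPKM and was not called (adjusted p = 0.11 in edgeR's quasi-likelihood test).

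Fibrillar collagens on which these enzymes act were higher where they could be tested, and other collagen types were not listed. Of 10 listed collagen and elastin fibre genes 8 could be tested, 7 higher and 1 lower, against 31.5% and 31.3% of all genes, and the median of their log2 fold changes was 0.92. Col1a1 was tested only because of its reads in LLC with BMSCs, and without it 6 of 7 were higher with a median of 0.84. Col3a1, of type III collagen, was by far the most abundant, rising from 41.2 ± 3.82 to 100.03 ± 1.48 FPKM, a log2 fold change of 1.26 ± 0.08 (SE). Col1a1 rose by 7.14 ± 0.22 and Col1a2 by 1.54 ± 0.10 on the log2 scale, both only to about 2 FPKM. Fbln5, an elastin fibre protein, fell from 2.75 ± 0.05 to 0.557 ± 0.021 FPKM, and Eln itself had at most 0.02 FPKM in a library.

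Genes of the hypoxia response were listed because several of the 10 enzymes are known to belong to it. Of 23 listed symbols 21 were in the files and could be tested. Of these 14 were higher and 2 lower, against 31.5% and 31.3% of all genes, and the median of their log2 fold changes was 0.88. Ca9 and Ero1a were not found by symbol. Ero1a is another name of the listed Ero1l, and other names of Ca9 were not searched. Vldlr was tested only because of its reads in LLC with BMSCs, and without it 13 of 20 were higher with a median of 0.75. Bnip3, a mitophagy receptor, rose by 1.77 ± 0.08 (SE), the oxygen sensor Egln3 by 1.66 ± 0.06 and the peptide hormone Adm by 1.59 ± 0.07 on the log2 scale. The glucose transporter Slc2a1 went from 55.0 ± 1.07 to 118.1 ± 1.48 FPKM. The 5 genes not called were Ndrg1, Pfkfb3, Pfkfb4, Aldoa and Pgk1. Pgk1, the most abundant of the list, had 1331 FPKM in LLC alone against 1504 FPKM in LLC with BMSCs, with an adjusted p of 0.057 in edgeR's quasi-likelihood test. Vegfa and Ddit4, textbook members of the same response, were lower, with log2 fold changes of -0.17 ± 0.05 and -0.97 ± 0.07; the call of Vegfa was lost in 6 of 18 alternative fits, that of Ddit4 in none. The part of hypoxia in the levels of the 10 enzymes was not tested.

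**Figure D5:**
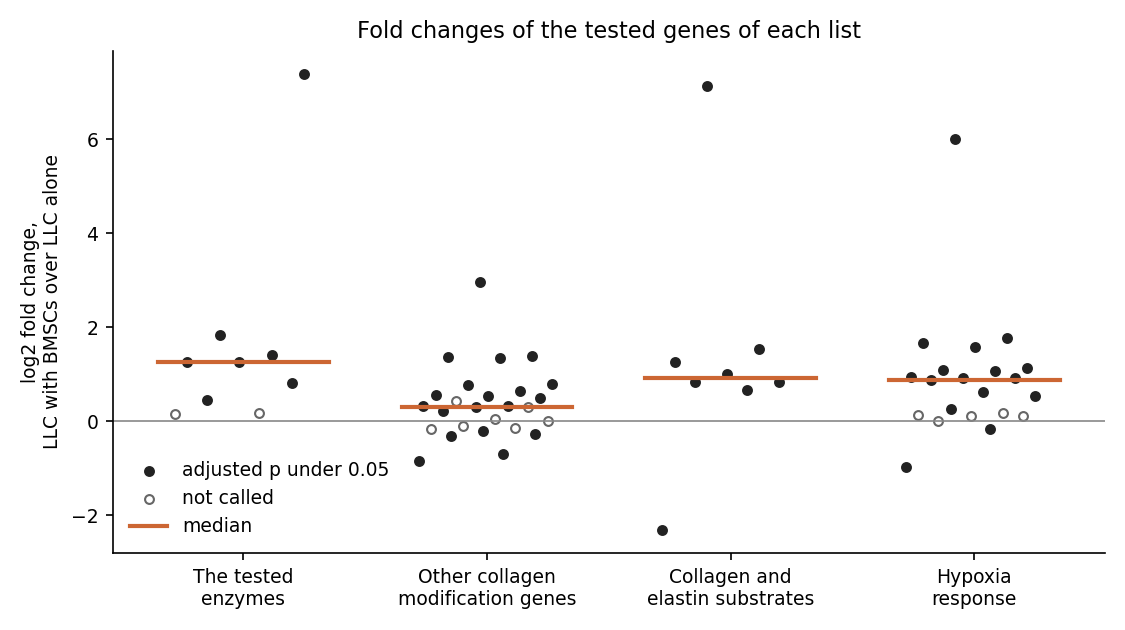
Log2 fold change (LLC with BMSCs over LLC alone) of the tested genes among the 10 enzymes, the other collagen modification genes, the collagen and elastin fibre substrates and the hypoxia response genes, with filled points for an adjusted p under 0.05, open points for genes not called and a line at each median. The medians are 1.25, 0.31, 0.92 and 0.88, the points near 7 are Lox and Col1a1, and the point at 6.01 is Vldlr, which had 0.273 FPKM in LLC with BMSCs.

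Exons of some of the 10 genes overlap those of a neighbour on the opposite strand in GENCODE, and whether the counting used strand was not given in the sources used here. Loxl3 shares 535 of its 4603 exon bases with Htra2, which was lower in LLC with BMSCs (log2 fold change -0.45 ± 0.08, SE), opposite to Loxl3. Plod3 shares 529 of 4519 exon bases with Znhit1, which had a log2 fold change of -0.04 ± 0.13. Loxl2 and Plod2 share 301 and 346 exon bases with the predicted genes Gm27177 and Gm38391. No such overlap was found for Loxl1, Loxl4, Plod1, P4ha1 and P4ha2.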

How the data were processed

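RNA of sorted LLC-RFP cells was sequenced in 6 libraries, 3 per group, with groups from the labels. The study's methods name TRIzol, oligo-dT enrichment and the BGISEQ-500, whereas the labels name Illumina protocols. Deposited values were estimated counts of genes and transcripts, which the authors had not normalized and which need not be whole, and FPKM values made by the authors, which divide by transcript length and library total. Per the labels, HISAT, StringTie, Cufflinks and GATK were used with build mm8; their versions, the counter and the annotation are not given in the sources used here. The files hold no coordinates, and those printed are from GENCODE and RefSeq on GRCm38. A library lists only genes of at least 0.01 FPKM, and others were set to 0.

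Estimated counts were rounded and tested across all genes with edgeR 4.0.16 (default filter on low counts, TMM scaling, quasi-likelihood test) in R 4.3.3, and p-values were adjusted by Benjamini-Hochberg and called under 0.05. Levels and shares were compared in FPKM with exact permutation tests (scipy 1.17.1). Alternatives used DESeq2 1.42.0, limma 3.58.1 on log2(FPKM + 1), other filters and scalings, a gene length trend, a replicate block and left-out libraries. The fits were tested on simulated data. All 10 genes are described, and from each other list at most 3 called genes per direction with the largest fold change and at least 100 normalized counts were singled out. P4hb, Bmp1, Pcolce, Colgalt1, Atp7a, the prolyl 3-hydroxylase genes and Slc2a1 were named for their roles. The hypoxia genes that were not called were all named. The genes and lists were chosen with earlier results of these data known. Nothing states that the libraries come from separate animals, so p-values measure only the spread between these samples, which may be technical. Counting intervals cover counting error only.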

Additional observations from a re-analysis of the deposited data

How the results depend on the processing

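All 18 alternatives kept between 6 and 8 of the 10 enzymes higher, none lower, and 4 or 5 higher by at least 1. The lowest of these counts came from requiring 10 counts in every library, which leaves Lox out. Lox, Loxl2, Loxl3, Plod1, Plod2, P4ha1 and P4ha2 were called higher in each alternative that tested them, whereas Plod3 was called in 5 of 18 (adjusted p 0.027 to 0.038). The log2 fold change of Loxl4 turned to -0.054 with the length trend removed and to -0.055 with the replicate block and the length trend removed together, and was called in no alternative. The other collagen modification genes called lower numbered 3 in place of 5 with the length trend removed, with that and the replicate block, and with the close pairs of libraries summed, and 3 to 5 with 1 library left out (3 without LLC with BMSCs replicate 3). Those called higher numbered 10 in place of 14 with close pairs summed, and 16 under the replicate block and without LLC alone replicate 3. Hypoxia genes called lower numbered 1 in place of 2 under the replicate block and with close pairs summed, and 1 to 2 with 1 library left out; the count was 1 without LLC alone replicate 1 and without each library of LLC with BMSCs. Transcripts whose shares did not overlap numbered 6 to 10 with 1 library left out, with 10 without LLC alone replicate 3. The causes were not tested. The log2 fold change of Lox was 2.07 on the log2(FPKM + 1) scale, where the pseudocount exceeds its level in LLC alone, against 7.40 in the count fit. Depth limits what can be said of Lox in LLC alone, with 11 counts over 3 libraries, and of Loxl1 in both groups.

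Same-numbered libraries of the groups did not deviate together (correlations of 0.076, -0.11 and 0.057), so the replicate number was not taken as a pairing. A fit with the replicate block called 4161 genes higher and 4058 lower, against 4210 and 4183 without it, and 7 of the 10 enzymes higher as before.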
